A study of Mus musculus with 2 samples.

Results

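Ehhadh, Acot1, Acot2, Cyp4a10, Cyp4a14, Fabp1, Pdk4 and Vnn1 are genes of fatty acid handling in the liver that the nuclear receptor PPAR-alpha is known to control. They were selected by gene symbol and were 8 of the 32285 genes listed in each library. Single-cell suspensions of liver were profiled by droplet-based 3′ RNA sequencing, in which each captured molecule carries a unique molecular identifier (UMI). WT and HKO littermates, all male per the study's methods, were fed CD-HFD, a diet rich in fat and lacking choline, from 8 weeks of age for 6 months, and were fasted before collection. HKO mice lack miR-33 in hepatocytes through a floxed allele and Cre under the albumin promoter. Whether the WT littermates carried the floxed allele was not given in the sources used here. The HKO library is labelled AlbCRE in its genotype field. Each genotype was represented by 1 library made from a pool of 3 livers, and hepatocytes had been mixed with sorted non-parenchymal cells. There were no replicates, so no test between genotypes was made. Every interval below is at 95% and covers counting error only.

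PPAR-alpha binds fatty acids and, with its partner RXR, switches on genes for the uptake, transport and oxidation of fatty acids, most of all in fasting. Peroxisomes shorten very long chain and dicarboxylic fatty acids, and cytochromes of the CYP4A family make dicarboxylic acids from the omega end of the chain. In the liver lobule, hepatocytes near the portal vein (periportal) and near the central vein (pericentral) carry different metabolic programs.

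Upstream sequences of 3 members are shown because they frame the results on the genotype and on the zones. Ehhadh had the lowest HKO level relative to WT, and Pdk4 had the steepest gradient along the lobule. Of the 5 members with an upstream sequence to search, Fabp1 was the one that held a near match to a PPAR response element. Each sequence shown is the stretch of 250 bases before the annotated start of the gene, from RefSeq on GRCm38.p6. The DR1 element was searched as AGGTCANAGGTCA on both strands with at most 1 mismatch outside the N. The TATA box was searched as TATAAA and the CCAAT box by its name, on both strands and without mismatch. Capitals mark every match to these 3 motifs.
Ehhadh, chr16:21787835-21788084, minus strand: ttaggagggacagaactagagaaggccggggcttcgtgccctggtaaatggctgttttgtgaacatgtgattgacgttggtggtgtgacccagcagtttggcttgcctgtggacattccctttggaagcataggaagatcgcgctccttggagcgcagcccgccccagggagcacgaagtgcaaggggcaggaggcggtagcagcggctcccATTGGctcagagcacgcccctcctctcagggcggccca
Fabp1, chr6:71199629-71199878, plus strand: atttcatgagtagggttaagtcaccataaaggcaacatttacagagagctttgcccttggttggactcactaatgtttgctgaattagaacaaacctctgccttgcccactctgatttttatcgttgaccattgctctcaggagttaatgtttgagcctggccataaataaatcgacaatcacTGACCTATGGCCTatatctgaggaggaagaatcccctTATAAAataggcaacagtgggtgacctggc
Pdk4, chr6:5496279-5496528, minus strand: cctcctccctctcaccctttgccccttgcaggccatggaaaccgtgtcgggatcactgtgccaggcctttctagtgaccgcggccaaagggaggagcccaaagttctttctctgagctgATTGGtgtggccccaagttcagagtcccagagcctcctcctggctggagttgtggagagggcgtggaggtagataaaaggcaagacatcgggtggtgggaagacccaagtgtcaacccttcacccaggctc

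The Fabp1 match to DR1, TGACCTATGGCCT, lay on the minus strand and began 67 bases before the start of the gene, with 1 mismatch. It was followed by TATAAA, which began 30 bases before the start. The DR1 match overlapped an exact match to AGGTCA, the repeated unit of DR1, on the same strand, and a further AGGTCA match on that strand began 9 bases before the start. Among 32851 mouse promoter windows of the same kind, which run from 250 bases before the start to 50 after it, 0.554% held such a DR1 match, 16.3% held AGGTCA, 13.6% held TATAAA and 37.4% held CCAAT. The windows of Ehhadh, Pdk4, Acot1 and Acot2 each held CCAAT, in the forward or the reverse direction (ATTGG), and no DR1 or TATAAA match. A match describes letters only. Cyp4a10, Cyp4a14 and Vnn1 had no sequence here and were not searched.

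In all, 30078 WT barcodes carried 130451427 UMIs (median 2658) and 20000 HKO barcodes carried 52563185 UMIs (median 1130). Of 12 clusters, 8 with 22074 WT and 14012 HKO barcodes were claimed by no marker list, the hepatocyte list included, and were taken as hepatocyte RNA by default. Their barcodes were called hepatocyte-like above a depth minimum, 5140 UMIs in WT and 1626 in HKO. Below it, 20161 WT and 10309 HKO barcodes were set apart as barcodes of free RNA depth, since hepatocyte RNA freed from broken cells can fill shallow droplets. The share of UMIs from Alb, the albumin gene, was 3.64% in hepatocyte-like barcodes and 3.48% at free RNA depth in WT, and 2.75% and 3.02% in HKO, so depth and not this marker told them apart. Set beside the sum of the 9 other named classes, in a check added after the data had been seen, 7 of 8 hepatocyte markers in WT and 8 of 8 in HKO were at least 2-fold higher in hepatocyte-like barcodes (1.81 to 2.87 times in WT and 3.20 to 5.16 times in HKO over the 8). The 4 erythroid markers were also at least 2-fold higher in both libraries. There were 1913 WT hepatocyte-like barcodes with a median of 20369 UMIs, and 3703 HKO barcodes with a median of 4262 UMIs. Their median mitochondrial share was 12.0% in WT and 9.86% in HKO, and 13 immediate early and dissociation response genes summed to 2868 CPM (counts per 1000000 UMIs of the class) in WT and 2053 CPM in HKO. Of this list, 10 genes reached a mean of 10 CPM, and 0 of them were higher and 10 lower in HKO. The part of these differences in the results below was not tested, and genotype and library cannot be told apart.

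In hepatocyte-like barcodes, Ehhadh was lower in HKO by a wide margin, Pdk4, Acot1 and Vnn1 were lower by smaller margins, and Acot2, Fabp1, Cyp4a10 and Cyp4a14 were somewhat higher. Of the 8 members, 4 were higher and 4 lower in HKO, where, over the 7082 genes that reached a mean of 10 CPM, 45.9% were higher and 54.1% lower. At 2-fold, 1 member was lower, against 0.932% of all genes, and 0 members were higher, against 0.409%. At 1.5-fold, 2 members were lower, against 4.32% of all genes, and 0 were higher, against 2.46%. The median log2 ratio was −0.06 over the members and −0.03 over all genes. Without Ehhadh the median of the other 7 members was 0.10. In the sums over whole libraries, in which barcodes of free RNA depth are many, 0 members were higher and 8 lower in HKO, against 44.1% and 55.9% of 7519 genes. There Ehhadh was at 591 CPM in WT and 137 CPM in HKO. The 4 members that were higher in hepatocyte-like barcodes were lower in HKO in these sums (WT value first), Fabp1 at 12077 and 10483 CPM, Cyp4a10 at 911 and 831 CPM, Cyp4a14 at 1356 and 1285 CPM and Acot2 at 30.7 and 29.9 CPM.

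The members act at different steps, and their values follow in that order. Ehhadh (ENSMUSG00000022853, chromosome 16, 21761285 to 21787834, GRCm38 as for all positions here) encodes the bifunctional enzyme of peroxisomal beta-oxidation, which carries out hydration and dehydrogenation. It had 23879 WT UMIs, or 487 CPM (480 to 493), against 4545 HKO UMIs, or 173 CPM (168 to 178). The HKO level in hepatocyte-like barcodes was 0.355 (0.343 to 0.366) of the WT level, the 12th lowest ratio of the 7082 genes. The highest single barcode held 168 Ehhadh UMIs in WT and 23 in HKO, and leaving these barcodes out kept the ratio at 0.355. The WT level lay below that of WT barcodes of free RNA depth, 712 CPM, whereas the HKO level lay above that of HKO barcodes of free RNA depth, 159 CPM.

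Acot1 and Acot2 encode acyl-CoA thioesterases, cytosolic and mitochondrial, which free fatty acids from coenzyme A. They lie side by side on chromosome 12, Acot2 at 83987861 to 83993877 and Acot1 at 84009502 to 84017670. Acot1 (ENSMUSG00000072949) had 3374 WT UMIs, or 68.7 CPM (66.4 to 71.1), against 1420 HKO UMIs, or 53.9 CPM (51.1 to 56.8), and a ratio HKO over WT of 0.784 (0.736 to 0.834). Acot2 (ENSMUSG00000021226) had 1352 WT UMIs, or 27.5 CPM (26.1 to 29.1), against 923 HKO UMIs, or 35.0 CPM (32.8 to 37.4), and a ratio HKO over WT of 1.27 (1.17 to 1.38). The neighbours thus lay on opposite sides of 1. Of the stretches of 50 bases in the last 500 bases of the Acot1 coding transcripts, 7.21% also occur in Acot2. Of those of Acot2, 0.443% occur in another gene, Gm13016. For reads from the stretches that Acot1 shares with Acot2, the assignment within the pair is uncertain.

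Cyp4a10 and Cyp4a14 encode omega-hydroxylases of fatty acids and lie close together on chromosome 4, at 115518287 to 115533649 and 115486200 to 115496158. Cyp4a10 (ENSMUSG00000066072) had 47816 WT UMIs, or 974 CPM (966 to 983), against 29527 HKO UMIs, or 1121 CPM (1108 to 1134), and a ratio HKO over WT of 1.15 (1.13 to 1.17). Cyp4a14 (ENSMUSG00000028715) had 71662 WT UMIs, or 1460.2 CPM (1450 to 1471), against 41323 HKO UMIs, or 1568 CPM (1553 to 1584), and a ratio HKO over WT of 1.07 (1.06 to 1.09). These were small differences in the same direction. Of the stretches of Cyp4a10, 5.95% also occur in Cyp4a31, a close relative, and 0 of Cyp4a14 occur in another gene.

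Fabp1, Pdk4 and Vnn1 stand for binding, fuel choice and cofactor turnover. Fabp1 (ENSMUSG00000054422, chromosome 6, 71199879 to 71205034), the fatty acid binding protein of liver, had 607818 WT UMIs, or 12385 CPM (12354 to 12416), against 388377 HKO UMIs, or 14741 CPM (14694 to 14787). Its ratio was 1.19 (1.185 to 1.195). Pdk4 (ENSMUSG00000019577, chromosome 6, 5483351 to 5496278) encodes a kinase that shuts off pyruvate dehydrogenase and so spares glucose. It had 2580 WT UMIs, or 52.6 CPM (50.6 to 54.6), against 848 HKO UMIs, or 32.2 CPM (30.1 to 34.4), and a ratio HKO over WT of 0.612 (0.566 to 0.662). Vnn1 (ENSMUSG00000037440, chromosome 10, 23894688 to 23905344) encodes pantetheinase, which breaks down a product of coenzyme A. It had 3359 WT UMIs, or 68.4 CPM (66.1 to 70.8), against 1552 HKO UMIs, or 58.9 CPM (56.0 to 61.9), and a ratio HKO over WT of 0.861 (0.810 to 0.914).

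**Figure D1:**
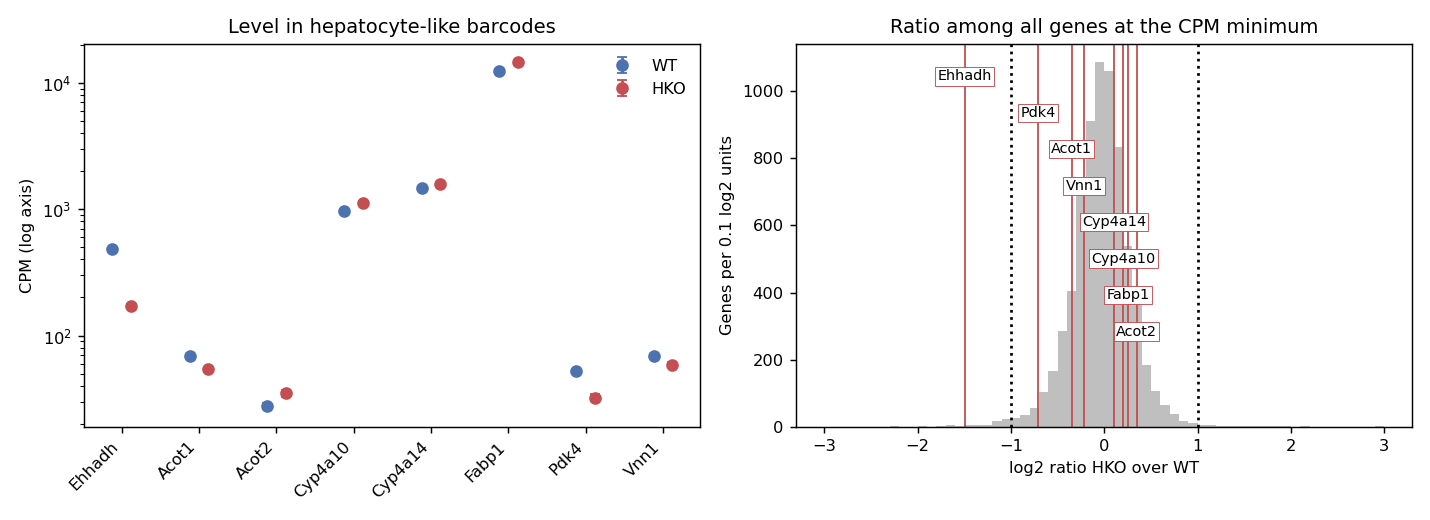
Left, level of each member in hepatocyte-like barcodes in CPM (log axis) with exact Poisson intervals, WT in blue and HKO in red. Right, log2 ratio HKO over WT of the 7082 genes that reached a mean of 10 CPM, as a histogram, with the members as red lines and 2-fold as dotted lines. Ehhadh is the member beyond 2-fold, and the others lie between −0.71 and 0.35.

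Ehhadh was lower in HKO in each zone, range of mitochondrial share and range of depth examined. Its ratio was 0.366 (0.349 to 0.384) in periportal, 0.349 in middle and 0.344 in pericentral hepatocyte-like barcodes, as set by a score of zone landmark genes. It was 0.340, 0.350, 0.351 and 0.336 in barcodes with mitochondrial shares of 0 to 2%, 2 to 10%, 10 to 20% and 20 to 50%. With the same depth limits in both libraries it was 0.283 (0.262 to 0.307) at 5000 to 10000 UMIs, 0.403 (0.380 to 0.426) at 10000 to 20000 UMIs and 0.334 (0.312 to 0.356) above. The lowest of these ranges holds 25 WT barcodes under the WT depth minimum. In barcodes of free RNA depth, the Ehhadh ratio was 0.224 (0.213 to 0.235). At that depth 1 member, Cyp4a14, was higher in HKO and 7 were lower, against 27.9% and 72.1% of 6971 genes. Fabp1 (0.813, 0.808 to 0.818), Cyp4a10 (0.892, 0.872 to 0.913) and Acot2 (0.908, 0.803 to 1.02) thus had ratios below 1 there, opposite to their ratios in hepatocyte-like barcodes, and the Acot2 interval includes 1.

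The hepatocyte-like counts were also set beside the UMIs that free RNA of the same library would give, computed from the profile of barcodes of free RNA depth and scaled by 11 genes of secreted hepatocyte proteins. In WT, Ehhadh was at 0.668 (0.659 to 0.676) of the UMIs given by free RNA, Acot1 at 0.612 (0.591 to 0.633), Acot2 at 0.781 (0.740 to 0.824) and Fabp1 at 0.930 (0.927 to 0.932), all below 1. Cyp4a10 (1.01, 1.004 to 1.02), Cyp4a14 (1.03, 1.02 to 1.04) and Vnn1 (1.01, 0.978 to 1.05) were near 1 in WT, both Cyp4a intervals lying above 1. Pdk4 was at 2.15 (2.07 to 2.23). In HKO, Ehhadh was at 1.11 (1.08 to 1.14), Acot2 at 1.15 (1.07 to 1.22), Cyp4a14 at 1.04 (1.03 to 1.05), Cyp4a10 at 1.37 (1.35 to 1.38), Fabp1 at 1.42 (1.419 to 1.428) and Pdk4 at 3.37 (3.15 to 3.60), all above 1. Acot1 (0.853, 0.809 to 0.898) and Vnn1 (0.936, 0.890 to 0.984) were below 1 in HKO. Hepatocytes make the 11 genes themselves, so here these ratios compare profiles relative to those genes and give no background level. On this scale Pdk4 was the member furthest above free RNA in both libraries, while Ehhadh was below it in WT and above it in HKO.

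For Pdk4 the ratio turned with depth. With 74 WT and 186 HKO UMIs, it stood at 1.48 (1.13 to 1.97) at 5000 to 10000 UMIs per barcode. At 10000 to 20000 UMIs it was 0.833 (0.711 to 0.975), and at 20000 UMIs or more 0.796 (0.697 to 0.906), where 1 HKO barcode held 65 of its 259 UMIs. With the top barcode of each genotype left out, the last value was 0.618 (0.531 to 0.716). Within WT, the Pdk4 level was 22.7, 42.0 and 57.0 CPM over these ranges, while in HKO it was 33.7, 35.0 and 45.4 CPM. The overall ratio of 0.612 was lower than the ratio in any of these 3 ranges. It includes 2043 HKO hepatocyte-like barcodes of fewer than 5000 UMIs, which fall in none of the ranges and in which Pdk4 was at 11.9 CPM (9.21 to 15.2), and 0 WT barcodes of that depth. Over the barcodes of at least 5000 UMIs in both libraries the ratio was 0.714, also lower than in each of the 3 ranges.

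The mitochondrial share of a barcode separated other members. In the 438 WT and 961 HKO barcodes with a share of at most 2%, which had medians of 25366 and 2578 UMIs, Cyp4a10 had 909 CPM in WT against 478 CPM in HKO (ratio 0.526, 0.502 to 0.551). In these barcodes Cyp4a14 had a ratio of 0.505 (0.486 to 0.524) and Vnn1 of 0.560 (0.469 to 0.664), while Fabp1 had 15904 CPM in WT against 26986 CPM in HKO (ratio 1.70, 1.68 to 1.71). Above 2%, the ratios of the same genes lay between 1.12 and 1.29 for Cyp4a10, 1.06 and 1.35 for Cyp4a14, 0.824 and 0.946 for Vnn1, and 1.01 and 1.15 for Fabp1. Acot2 was at 0.992 (0.832 to 1.18) at 2 to 10% and between 1.204 and 1.59 in the other ranges. Pdk4 had ratios of 0.824, 0.823, 0.497 and 0.480 from the lowest to the highest range of mitochondrial share. Within each library Fabp1 was lowest in the range of 20 to 50%, at 3574 CPM in WT and 4121 CPM in HKO. The direction for both Cyp4a genes was thus opposite in barcodes of very low mitochondrial share. With those barcodes left out, an alternative added after the data had been seen, Cyp4a10 had a ratio of 1.24 and the median log2 ratio of the members was 0.02.

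**Figure D2:**
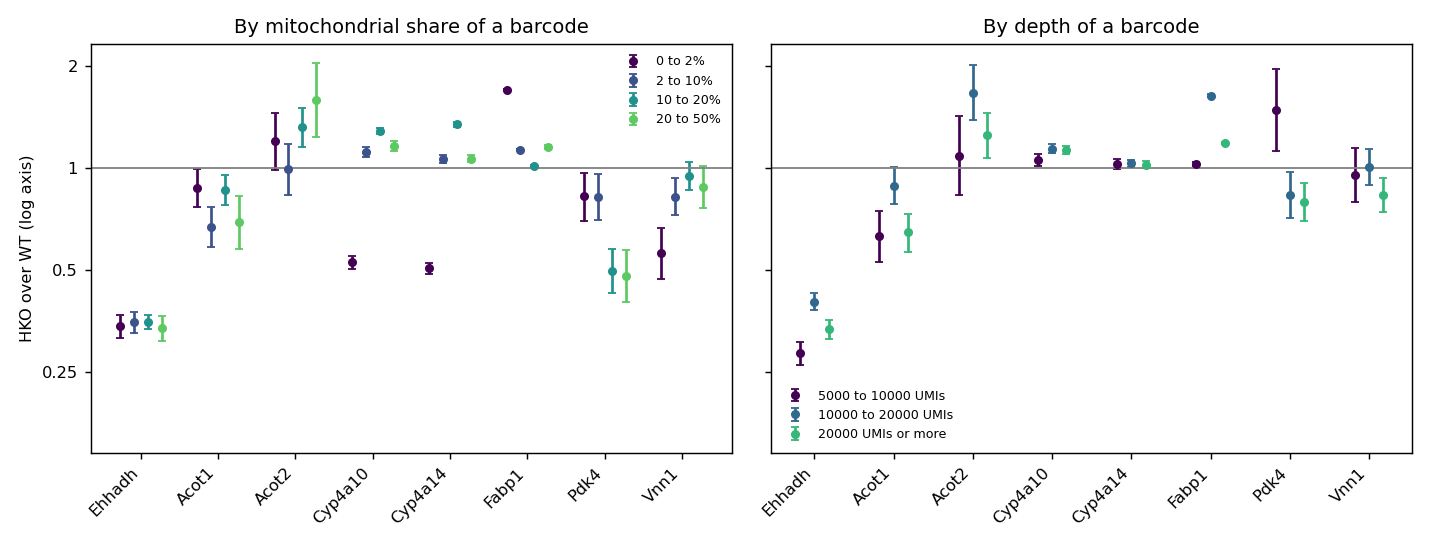
Ratio HKO over WT (log axis) of each member in hepatocyte-like barcodes split by mitochondrial share (left) and in barcodes of the hepatocyte clusters split by depth from 5000 UMIs (right), with exact conditional intervals. The 7 Ehhadh values lie between 0.283 and 0.403, while Cyp4a10 and Cyp4a14 lie at 0.526 and 0.505 in barcodes of at most 2% mitochondrial share and Pdk4 lies at 1.48 in the shallowest range.

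The other genes of the pathway gave the setting of these values. Of 107 listed genes, 95 had a mean CPM of at least 10, with 39 higher and 56 lower in HKO and a median log2 ratio of −0.08. Over all genes tested, 45.9% were higher and 54.1% lower, with a median of −0.03. At 1.5-fold, 1 of the pathway genes was higher, against 2.46% of all genes, and 7 were lower, against 4.32%. Ppara itself, the receptor, had 325 CPM in WT against 474 CPM in HKO (ratio 1.46, 1.43 to 1.49), and its partner Rxra was at 115 CPM against 120 CPM (ratio 1.04, 0.995 to 1.09). The coactivator Ppargc1a had a ratio of 1.15 (1.06 to 1.24). Of the receptor and its partners, 8 of 11 were higher.

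The other genes of peroxisomal beta-oxidation had ratios above that of Ehhadh, from 0.669 (0.637 to 0.702) for Amacr, a racemase of branched-chain acyl-CoA named here after its value was seen, to 2.23 for Acot3. Hsd17b4, the other bifunctional enzyme, had a ratio of 0.967 (0.942 to 0.993), and the thiolases Acaa1a and Acaa1b had ratios of 1.06 (1.02 to 1.11) and 0.899 (0.888 to 0.910). Scp2, a thiolase and sterol carrier, had a ratio of 0.923, Abcd3, which carries acyl-CoA into the peroxisome, of 0.978, and Crot, which makes medium-chain carnitine esters for export, of 1.13. Acot8, a peroxisomal thioesterase, and Pex11a, which acts in peroxisome division, had ratios of 0.973 (0.875 to 1.08) and 0.955 (0.911 to 0.9997). Of the 21 measured genes of peroxisomal oxidation and transport, 9 were higher and 12 lower, with a median log2 ratio of −0.03. Of 12 genes of peroxisome assembly, 3 were higher and 9 lower, with a median of −0.29. Of 9 measured genes of omega-oxidation, 2 were higher and 7 lower, with a median of −0.22. Of 17 genes of mitochondrial oxidation and ketogenesis, 8 were higher and 9 lower, with a median of −0.04, and of 25 other PPAR-alpha targets 9 were higher and 16 lower, with a median of −0.21.

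Among the 95 pathway genes at the CPM minimum, the 5 lowest ratios were those of Acsl3 (0.476), Fgf21 (0.497), Angptl4 (0.542), Acsl5 (0.602) and Txnip (0.623). Fgf21 encodes a fasting hormone of the liver and had 21.2 CPM in WT against 10.6 CPM in HKO. Angptl4, an inhibitor of lipoprotein lipase, had 114 and 62.0 CPM. Acsl3 and Acsl5 encode acyl-CoA synthetases. The 5 highest were those of Acot3 (2.23), Ppara (1.46), Cpt1a (1.38), Nudt7 (1.32) and Cyp8b1 (1.28). Acot3, a peroxisomal thioesterase from the same gene family as Acot1 and Acot2, had 13.8 CPM in WT against 30.8 CPM in HKO, with Acot1 lower and Acot2 higher as given above. Of the other listed genes of the family, named here after their values were seen, Acot4 had a ratio of 1.19 (1.12 to 1.26), Acot12 of 1.05 (1.005 to 1.10) and Acot8 of 0.973 (0.875 to 1.08), an interval that includes 1. Acot6 was under the CPM minimum, with 42 WT and 18 HKO UMIs and a ratio of 0.798 (0.433 to 1.42).

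Zones were read from a score of 10 pericentral against 10 periportal landmark genes, none of them a member, and the hepatocyte-like barcodes of each library were cut by this score into 3 zones of equal size, called periportal, middle and pericentral. In WT all 8 members had a higher level in the pericentral than in the periportal zone, where 50.2% of all genes were higher. In HKO 7 members were higher with intervals above 1 and Ehhadh was at 1.00 (0.938 to 1.07), an interval that includes 1, where 59.4% of all genes were higher. The Ehhadh value in HKO was 0.884 with barcodes weighted equally and 0.998 with cytochrome P450 genes left out of the score. At 2-fold, 4 members were higher in each library, against 1.83% of genes in WT and 2.62% in HKO. The median log2 ratio of pericentral over periportal was 0.76 in WT and 0.80 in HKO over the members, and 0.00 and 0.07 over all genes. CPM is relative to all UMIs, and the Alb share of UMIs was 4.19% periportal and 2.93% pericentral in WT and 3.37% and 1.88% in HKO. The zones differed in depth, with medians of 21359, 16857 and 22193 UMIs from periportal to pericentral in WT and 8067, 2971 and 3608 in HKO, and 360 of 1913 WT and 630 of 3703 HKO barcodes lay within 0.1 SD of a cut. The part of depth in the zone values was not tested beyond the alternatives given with the processing.

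The steepest gradients were those of Pdk4, Vnn1, Acot1 and Acot2. Pdk4 had 31.1, 36.3 and 88.8 CPM from the periportal over the middle to the pericentral zone in WT and 12.0, 27.5 and 65.4 CPM in HKO. Pericentral over periportal, this was 2.85 (2.58 to 3.16) in WT and 5.43 (4.52 to 6.58) in HKO. The zones were cut within each library, and every landmark gene of the score was also steeper in HKO than in WT. In WT and HKO, Glul was at 15.5 and 59.2, Cyp2e1 at 14.3 and 29.4 and Hal at 0.289 and 0.147. Under the alternatives the Pdk4 gradient ran from 2.79 to 3.72 in WT and from 3.60 to 7.36 in HKO, ranges that overlap. The difference between genotypes was not tested. The HKO level of Pdk4 relative to WT was 0.387 (0.319 to 0.466) periportal and 0.737 (0.666 to 0.814) pericentral.

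Vnn1 had 38.9, 61.8 and 103 CPM in WT and 39.8, 51.6 and 92.6 CPM in HKO, gradients of 2.66 (2.42 to 2.91) and 2.33 (2.07 to 2.62). Acot1 had 44.3, 70.5 and 90.7 CPM in WT and 29.6, 50.0 and 92.6 CPM in HKO, gradients of 2.05 (1.87 to 2.24) and 3.13 (2.75 to 3.55). By these zones, cut within each library, the Acot1 ratio HKO over WT was 0.669 (0.587 to 0.760) periportal and 0.710 (0.624 to 0.806) middle. The pericentral ratio was 1.02 (0.934 to 1.11). The steeper landmarks of HKO apply here as well, and their part was not tested. Acot2 had 17.8, 25.8 and 38.6 CPM in WT and 23.0, 31.6 and 55.4 CPM in HKO, gradients of 2.17 (1.88 to 2.50) and 2.41 (2.07 to 2.81).

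Fabp1 and the Cyp4a genes had shallow gradients and Ehhadh had nearly none. Fabp1 had 9993, 13114 and 14005 CPM in WT and 13194, 14924 and 16886 CPM in HKO, gradients of 1.40 (1.39 to 1.41) and 1.28 (1.27 to 1.29). Cyp4a10 had 848, 916 and 1151 CPM in WT and 1086, 851 and 1375 CPM in HKO, and Cyp4a14 had 1355, 1383 and 1636 CPM in WT and 1473, 1296 and 1914 CPM in HKO. In WT the middle zone lay between the others for both genes, and in HKO it was the lowest. Their gradients were 1.36 and 1.27 for Cyp4a10 and 1.21 and 1.30 for Cyp4a14 in WT and HKO. Ehhadh had 478, 471 and 510.2 CPM in WT, a gradient of 1.07 (1.04 to 1.10), and 175, 164 and 175 CPM in HKO, a gradient of 1.00 (0.938 to 1.07), an interval that includes 1.

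**Figure D3:**
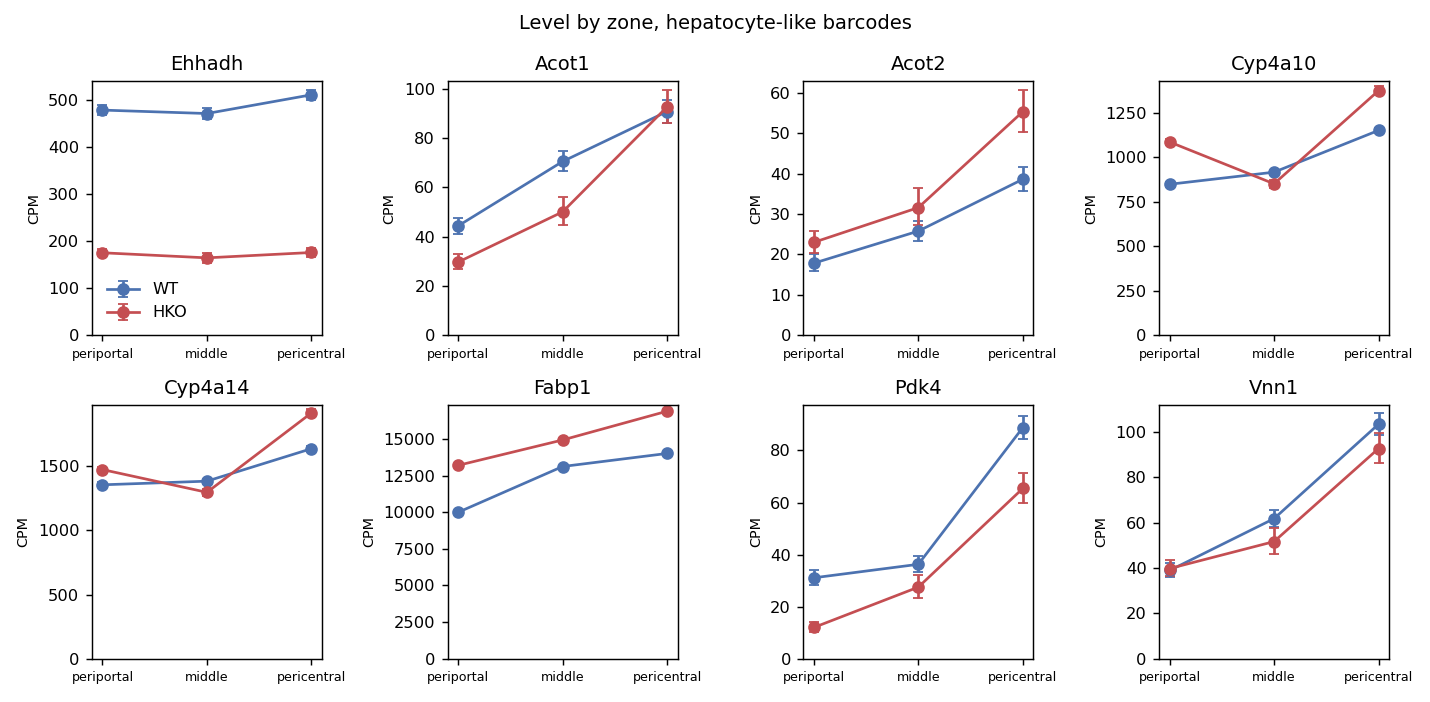
Level in CPM of each member in the periportal, middle and pericentral zone of hepatocyte-like barcodes, with exact Poisson intervals, WT in blue and HKO in red, each panel from 0. Pdk4, Vnn1, Acot1 and Acot2 climb at least 2-fold towards the pericentral zone, and the Ehhadh lines are nearly flat, between 471 and 510.2 CPM in WT and between 164 and 175 CPM in HKO.

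To compare barcodes at equal depth, hepatocyte-like barcodes of at least 5000 UMIs, 1913 in WT and 1660 in HKO, were thinned to 5000 UMIs each. Ehhadh was then found in 82.5% (80.7 to 84.2) of WT and 51.1% (48.7 to 53.6) of HKO barcodes, with medians of 2 and 1 UMIs and highest values of 16 and 11. Unthinned, over all hepatocyte-like barcodes, these shares were 97.7% and 50.1%. Pdk4 was found in 15.4% (13.8 to 17.1) of WT and 9.04% (7.70 to 10.5) of HKO barcodes, and its variance was 2.61 and 3.54 times its mean. The variances of Acot1, Acot2 and Vnn1 were 1.12 to 1.33 times their means.

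Acot1 was found in 27.5% of WT and 19.3% of HKO barcodes, Acot2 in 11.5% and 14.4%, and Vnn1 in 26.3% and 22.5%. Cyp4a10 was found in 92.5% and 86.9%, Cyp4a14 in 96.3% and 91.8%, and Fabp1 in 100% and 99.9%. Cyp4a10 and Cyp4a14 spread more widely in HKO, with variances of 5.62 and 6.37 times the mean against 3.56 and 3.76 in WT. Fabp1 did so as well, with 64.3 times the mean in HKO against 42.4 in WT. Pdk4, Acot1, Acot2 and Vnn1 went the same way by smaller amounts, while Ehhadh was at 1.59 in HKO against 2.13 in WT.

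B-like barcodes, which should lack the members, were set beside these shares. At 5000 UMIs, 14 WT and 3 HKO B-like barcodes remained. In WT, Ehhadh was found in 78.6% (49.2 to 95.3) of them, Cyp4a10 in 71.4% (41.9 to 91.6), Cyp4a14 in 92.9% (66.1 to 99.8), Fabp1 in 100% (76.8 to 100), Acot1 in 21.4% (4.66 to 50.8), Acot2 and Vnn1 each in 14.3% (1.78 to 42.8) and Pdk4 in 7.14% (0.181 to 33.9). With the exception of Cyp4a10, the WT hepatocyte-like shares lay within these intervals, so at this depth they were not told apart from background, Ehhadh included. Of the 3 HKO B-like barcodes, 3 held Fabp1, 2 held Cyp4a10 and 0 held another member, and the intervals for 0 of 3 reach 70.8%.

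More B-like barcodes remained at 500 UMIs, 30 in WT and 159 in HKO. Ehhadh was found in 21.6% of WT hepatocyte-like and 23.3% (9.93 to 42.3) of WT B-like barcodes, and in 8.64% of HKO hepatocyte-like and 1.89% (0.391 to 5.41) of HKO B-like barcodes. For Fabp1 these shares were 88.8% and 93.3% in WT and 89.0% and 75.5% in HKO. Cyp4a10 was found in 37.4% and 13.3% (3.76 to 30.7) in WT and 35.9% and 23.9% (17.5 to 31.3) in HKO, and Cyp4a14 in 49.6% and 20.0% (7.71 to 38.6) in WT and 47.1% and 27.7% (20.9 to 35.3) in HKO. The WT shares of Ehhadh and Fabp1 were therefore at the level of background, and those of both Cyp4a genes were above the B-like shares in each library. At free RNA depth, however, WT barcodes held Cyp4a10 in 36.9% and Cyp4a14 in 49.3% at 500 UMIs, near the hepatocyte-like shares. In HKO these were 33.1% and 52.8%. Alb made up 1.84% of UMIs in WT B-like barcodes and 3.48% at WT free RNA depth, so B-like barcodes held less hepatocyte RNA. Acot1, Acot2, Pdk4 and Vnn1 were found in at most 3.82% of hepatocyte-like barcodes at 500 UMIs, within the intervals of their B-like shares in each library. B-like barcodes had a median depth of 4861 UMIs (WT) and 1840.0 UMIs (HKO), hepatocyte-like barcodes one of 20369 and 4262 UMIs. B-like barcodes were no pure background for every member, since in HKO they held 10 Acot2 UMIs against 3.30 expected from free RNA (3.03 times, 1.45 to 5.57) and 108 Cyp4a10 UMIs against 88.5 (1.22, 1.0006 to 1.47).

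**Figure D4:**
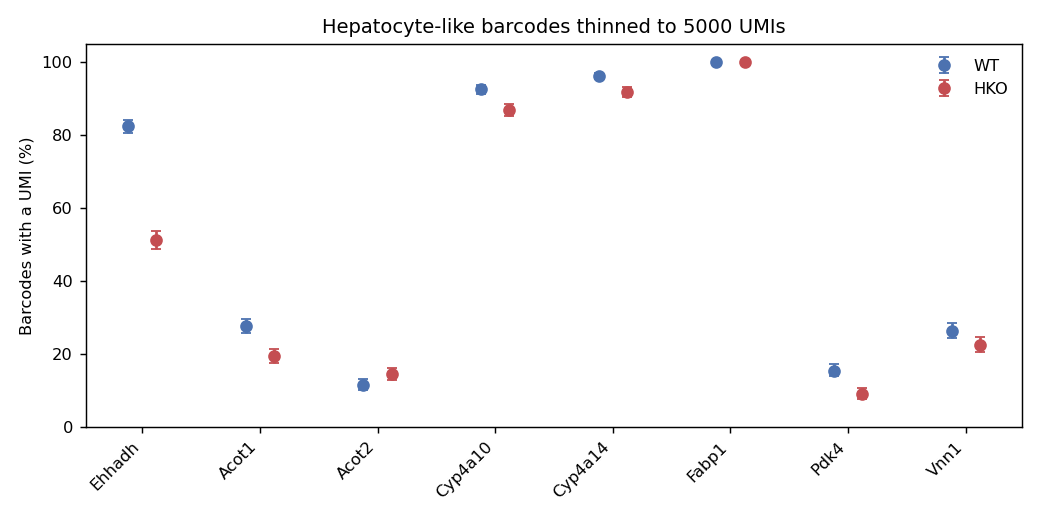
Share of hepatocyte-like barcodes with at least 1 UMI of each member after thinning to 5000 UMIs, in percent with exact binomial intervals, WT in blue (1913 barcodes) and HKO in red (1660 barcodes). The widest gap is that of Ehhadh, 82.5% against 51.1%.

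From barcode to barcode, the members did not vary as 1 block. Correlations are Pearson's r of log(1 + count) over the thinned barcodes, which share their library, and are descriptions. Of the 28 pairs, Cyp4a10 and Cyp4a14 had the highest r, 0.434 in WT and 0.611 in HKO. Ehhadh and Cyp4a10 had r of 0.282 and 0.257. Pdk4 had no pair with another member above 0.0621 and was negative with Fabp1, at −0.125 in WT and −0.129 in HKO.

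Over 4586 genes, the genes most like each member were taken by the lower r of both libraries. For Ehhadh they were Cat, the peroxisomal catalase (0.434 and 0.271 in WT and HKO), Cyp4a10, and Acaa1b, the peroxisomal thiolase (0.331 and 0.254). For Cyp4a10 they were Mgst1 (0.457 and 0.527), a membrane-bound glutathione transferase, Cyp4a14, and Selenop (0.411 and 0.512), a secreted selenium carrier. Cyp4a14 was next to Cyp4a10, Acsl1 (0.279 and 0.453) and Serpina3k (0.278 and 0.414). Fabp1 was most like Apoc1 (0.868 and 0.819), Fth1 (0.805 and 0.831) and Rpl41 (0.794 and 0.815), short and abundant transcripts.

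Pdk4 was most like Esrrg (0.285 and 0.363), an orphan nuclear receptor, Tenm3 (0.283 and 0.375) and Tox (0.274 and 0.404). For Vnn1 the likest genes were Mgst1 (0.204 and 0.190), Cd36 (0.189 and 0.216) and Cyp2e1 (0.200 and 0.189), for Acot1 they were Rgn (0.208 and 0.295), Cyp2c50 (0.193 and 0.213) and Rnase4 (0.187 and 0.184), and for Acot2 they were Aldh1a1 (0.191 and 0.211), Fth1 and Rps12. Cyp2e1 and Rgn were pericentral landmarks of the zone score. The values for Vnn1, Acot1 and Acot2 were weak and rested on few UMIs per barcode.

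Outside hepatocytes, the counts of the members were set beside what free hepatocyte RNA would give, and in WT T and NK-like barcodes those of Fabp1, Ehhadh and both Cyp4a genes did not differ from it beyond counting error. The UMIs expected from free RNA were computed as for hepatocyte-like barcodes, and their intervals cover the counted UMIs only. Over the 8 members and 7 classes, 56 values in each library, the interval lay above free RNA for 11 in WT and 20 in HKO, and below it for 5 and 6. The same count over all genes was not made. These counts, and those for single members below, thus have no background share and are not read as a trait of the members. In 138 WT T and NK-like barcodes, 4888 Fabp1 UMIs were counted against 4919 expected, 342 against 355 for Cyp4a10, 523 against 522 for Cyp4a14 and 277 against 269 for Ehhadh. In the 503 HKO T and NK-like barcodes all 4 stood above free RNA, with 3936 UMIs against 3708 for Fabp1 (1.06 times, 1.03 to 1.10), 339 against 294 for Cyp4a10 (1.15, 1.03 to 1.28), 614 against 542 for Cyp4a14 (1.13, 1.05 to 1.23) and 91 against 55.7 for Ehhadh (1.63, 1.31 to 2.00). The Ehhadh ratio HKO over WT in this class, 0.210 (0.164 to 0.268), was close to that of free RNA, 0.224, and is not read as a difference within T and NK cells. The median depth of the class was 6403 UMIs in WT and 2597 in HKO.

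Pdk4 stood above free RNA in endothelial-like barcodes of both libraries and in stellate-like and cholangiocyte-like barcodes of HKO. In endothelial-like barcodes, 68 in WT and 135 in HKO, 20 UMIs were counted against 4.24 expected in WT, 4.71 (2.88 to 7.28) times, and 24 against 1.02 in HKO, 23.5 (15.1 to 35.0) times. The levels were 39.2 and 46.8 CPM, a ratio of 1.19 (0.632 to 2.28) with an interval that includes 1. The UMIs lay in 13 WT and 21 HKO barcodes. In stellate-like barcodes 7 UMIs were counted against 3.25 in WT, an excess whose interval includes 1, and 8 against 0.940 in HKO. In cholangiocyte-like barcodes 20 UMIs in 9 of 24 barcodes stood against 0.664 in HKO, and 1 UMI in 7 barcodes against 0.686 in WT. In macrophage and Kupffer-like barcodes it had 8 UMIs against 1.56 in WT, in 3 of 19 barcodes, and 1 against 0.806 in HKO. In T and NK-like barcodes Pdk4 had 8 UMIs against 9.04 in WT and 5 against 3.42 in HKO, and in B-like barcodes 1 UMI in each library.

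Acot2 stood above free RNA in 3 of the 7 classes in WT and in 6 in HKO, all but stellate-like barcodes, and Acot1 in 2 classes in WT and 3 in HKO. Both did so in macrophage and Kupffer-like and in cholangiocyte-like barcodes of both libraries. In macrophage and Kupffer-like barcodes, Acot1 had 18 UMIs against 7.16 expected in 19 WT barcodes, and 40 against 5.34 in 91 HKO barcodes, 7.50 (5.36 to 10.2) times. Acot2 had 8 against 2.25 in WT and 25 against 2.58 in HKO, 9.68 (6.27 to 14.3) times. In HKO cholangiocyte-like barcodes Acot1 had 24 against 4.39 and Acot2 19 against 2.13. Acot2 was also above free RNA in T and NK-like barcodes, with 25 against 13.02 in WT and 29 against 10.96 in HKO. In HKO it was further at 3.03 (1.45 to 5.57) times free RNA in B-like, 3.36 (1.68 to 6.02) times in endothelial-like and 3.86 (1.55 to 7.95) times in monocyte and dendritic-like barcodes, where Acot1 was at 2.67 (1.28 to 4.91) times. In WT the Acot2 intervals in these 3 classes and the Acot1 interval in the last included 1. The levels of Acot1 in macrophage and Kupffer-like barcodes were 50.8 CPM in WT against 41.9 CPM in HKO (ratio 0.825, 0.462 to 1.53).

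Fabp1, Cyp4a10 and Vnn1 did not stand above free RNA in both libraries in any of 7 classes (T and NK, endothelial, stellate, macrophage and Kupffer, B, cholangiocyte, monocyte and dendritic). In WT alone, Cyp4a10 was above it in endothelial-like (1.22, 1.06 to 1.40) and Vnn1 in T and NK-like barcodes (1.60, 1.14 to 2.18). Fabp1 was also above it in HKO macrophage and Kupffer-like barcodes (1.07, 1.001 to 1.14). In HKO cholangiocyte-like barcodes Fabp1 was at 0.504 (0.454 to 0.559) of the expected UMIs. Ehhadh stood above free RNA in HKO macrophage and Kupffer-like barcodes as well, with 28 UMIs against 13.1 (2.13, 1.42 to 3.08), and in 0 of the 7 classes in WT. Cyp4a14 was at 1.21 (1.08 to 1.36) times free RNA in WT and 1.34 (1.16 to 1.53) times in HKO endothelial-like barcodes. In WT macrophage and Kupffer-like barcodes it was at 1.31 (1.08 to 1.57) times.

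**Figure D5:**
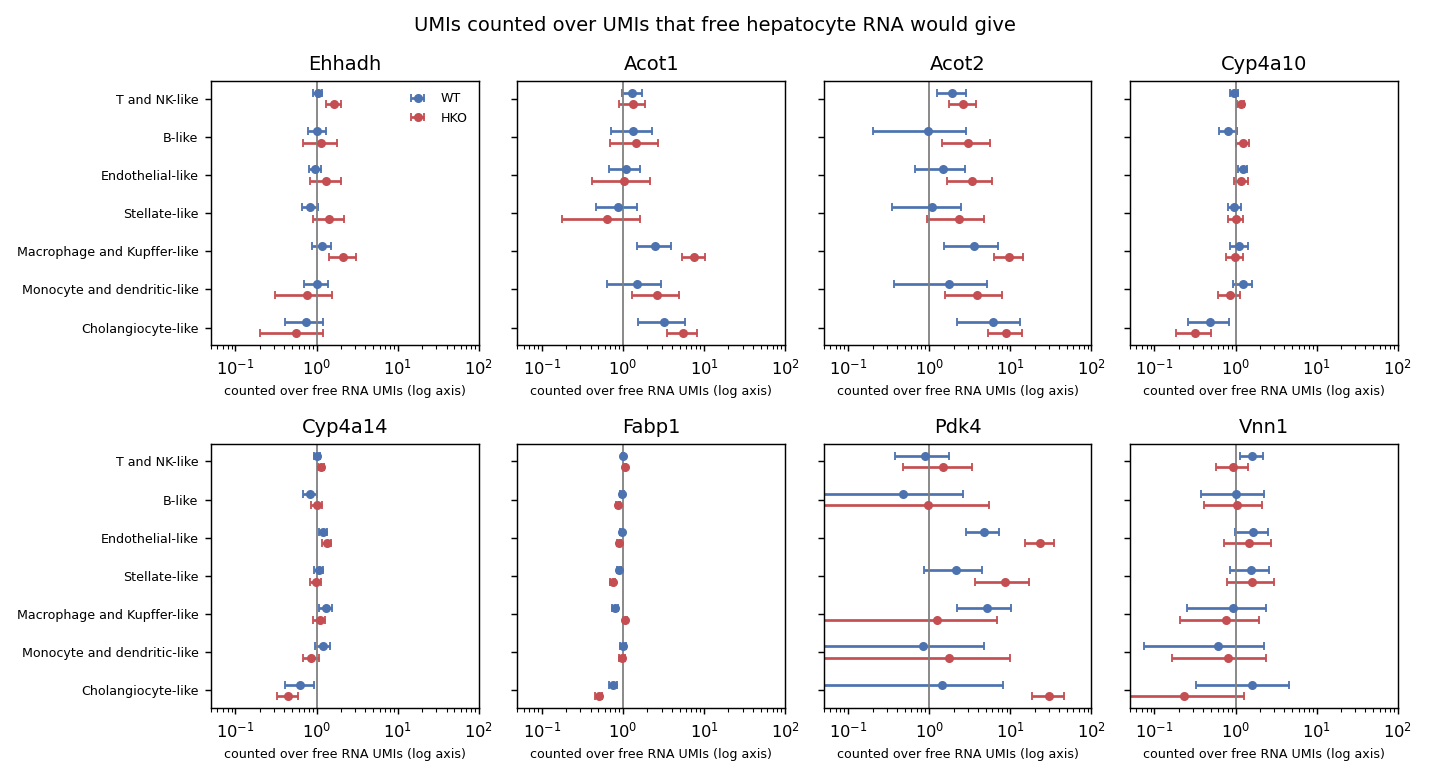
UMIs counted over UMIs that free hepatocyte RNA would give (log axis) for each member in 7 classes, with exact Poisson intervals of the counted UMIs, WT in blue and HKO in red. The line marks 1, and intervals that reach below 0.05 end at the axis. Fabp1 and the Cyp4a genes sit between 0.316 and 1.34, while Pdk4 in endothelial-like barcodes (4.71 and 23.5) and Acot1 and Acot2 in macrophage and Kupffer-like barcodes of HKO (7.50 and 9.68) lie above it, as do other intervals of HKO (20 of 56 in all) and of WT (11 of 56).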

How the data were processed

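The authors deposited UMI counts as whole numbers for each gene in each barcode. Per the file headers they come from Cell Ranger 7.1.0, and they were not normalized. The labels name mm10, R 3.0 and Seurat 3 among the submitters' processing notes. Barcodes with at least 500 UMIs, 300 genes and at most 50% mitochondrial UMIs were kept. The doublet caller of scanpy 1.11.5 marked 0 barcodes by its automatic threshold, so the top-scoring 0.8% per 1000 barcodes were left out, 7019 in WT (23.7%) and 2664 in HKO (14.6%). The remaining 22601 WT and 15583 HKO barcodes were clustered together (30 components, 15 neighbours, resolution 1.0) with members and pathway genes left out of the variable genes, and the 4 clusters claimed by marker lists of other cell types were split again and named from 14 marker lists. The other 8 clusters had no marker call and were taken as hepatocyte RNA. Sub-clusters claimed by the hepatocyte list alone, or by none, stayed unnamed (144 WT and 307 HKO barcodes). The depth minimum of hepatocyte-like barcodes was 2 times the commonest depth of each library. UMIs were summed per class and library, and CPM, ratios and shares have exact Poisson, conditional and Clopper-Pearson intervals (scipy 1.17.1). The intervals of ratios were tested on simulated Poisson counts. Such counts follow the model that the intervals assume, so that test does not cover the wider spread between barcodes given above. A gene under 3 counts was set to 3 in ratios across all genes. Barcode names of the WT library were not used here, so shared barcodes were not counted.

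The members and lists were chosen with earlier results of these data known. Genes named in the text are the 8 members, 3 genes of the receptor complex, 9 of peroxisomal oxidation, of which 1 is not reported here, the 5 highest and 5 lowest ratios of the other pathway genes at the CPM minimum, and 3 genes most like each member. RefSeq promoters (GRCm38.p6) matched 5 of 8 members.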

Additional observations from a re-analysis of the deposited data

Results flagged for a closer look

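The direction of the HKO difference of both Cyp4a genes differed between groups of barcodes, and the difference between these groups was not tested, because each genotype had 1 library. By mitochondrial share, the ratio HKO over WT of Cyp4a10 was 0.526 at 0 to 2%, 1.12 at 2 to 10%, 1.29 at 10 to 20% and 1.16 at 20 to 50%. For Cyp4a14 the ratios over the same ranges were 0.505, 1.06, 1.35 and 1.06. By zone, Cyp4a10 had ratios of 1.28 in the periportal, 0.929 in the middle and 1.19 in the pericentral zone, and Cyp4a14 had ratios of 1.09, 0.937 and 1.17. In both libraries the middle zone had the lowest median depth, 16857 UMIs in WT and 2971 in HKO, and the lowest median mitochondrial share, 9.85% and 6.16%. In endothelial-like barcodes the ratio of Cyp4a14 was 0.723, against 1.07 in hepatocyte-like barcodes. The counts in that class were 297 in WT and 216 in HKO, of which free RNA would give 245 and 162.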

How the results depend on the processing

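The ratios of Ehhadh (0.280 to 0.403), Acot1 (0.628 to 0.887), Acot2 (1.09 to 1.67) and Fabp1 (1.03 to 1.70) kept their direction under the 16 alternatives, although not in barcodes of free RNA depth for Acot2 and Fabp1, nor at a mitochondrial share of 2 to 10% for Acot2 (0.992). Pdk4 reversed to 1.48 at 5000 to 10000 UMIs and Vnn1 to 1.01 at 10000 to 20000 UMIs. Cyp4a10 reversed to 0.985 with barcodes weighted equally and to 0.526 at a mitochondrial share of at most 2%, where Cyp4a14 reversed to 0.505. The members' median log2 ratio reversed to 0.037 at 5000 to 10000 UMIs, 0.029 at 10000 to 20000 UMIs and 0.018 at a mitochondrial share over 2%. It was −0.12 at 20000 UMIs or more and with equal weights, −0.15 when thinned to 1000 UMIs and −0.56 at a mitochondrial share of at most 2%. The pathway median was −0.20 without a depth minimum, reversed to 0.044 at 10000 to 20000 UMIs and was −0.21 above. Genes at least 2-fold higher and lower, 29 and 66, became 184 and 106 at 5000 to 10000 UMIs, 84 and 126 when thinned, 168 and 164 at a mean CPM of 1, and 342 and 459 at a mitochondrial share of at most 2%. The higher genes were 149 at 10000 to 20000 UMIs and 44 with equal weights, and the lower genes 100 at 20000 UMIs or more. The causes were not tested.

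The members' median zone log2 ratio was 0.65 in WT and 0.58 in HKO with equal weights, and 0.91 in HKO at 5000 UMIs or more. The Ehhadh gradient in HKO was 0.884 with equal weights and 0.998 with a zone score without cytochrome P450 genes. The other members were higher in the pericentral zone in both libraries under all 7 alternatives. Subtracting free RNA left 30.9 of 39.2 CPM of Pdk4 in WT and 44.8 of 46.8 CPM in HKO endothelial-like barcodes. The limits on mitochondrial share were chosen after the data had been seen. No paired analysis was possible because each genotype had 1 library. Depth limits what can be seen of the members with few UMIs, Acot2 and Pdk4 above all, and no value speaks to variation between mice.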
